A study of Mus musculus with 8 samples.

Results

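Mitosis and spindle genes are described here as 54 genes, chosen by symbol from the 24505 genes of a mouse RNA-seq count table and followed across 4 groups of 2 libraries. All 54 were found and all 54 passed the filter on low counts, together with 12645 other genes. The cells were Scid.adh.2c2, a mouse cell line that resembles pro-T cells, the early T cell precursors. Every group received a retrovirus that carries GFP: with no added factor (mock), with wild-type Runx1 (Runx1 WT), with a construct labelled Runx1 DN, or with Satb1. Runx1 is a DNA-binding transcription factor needed in early T cells, and Satb1 is a chromatin-binding factor of thymocytes. The labels do not spell out DN or say which part of Runx1 it holds. Infected cells were sorted 2 days after infection, and RNA of 300000 cells was sequenced as single reads of 50 nt. The host is a cell line, and nothing in the labels says whether the libraries of a group came from separate cultures. The p-values therefore speak for the spread among these libraries alone, and that spread may be a technical one.

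Entry into mitosis is driven by Cdk1 bound to A and B cyclins, which Cdc25 phosphatases switch on. Condensins and topoisomerase II compact the chromosomes, motors and microtubule proteins build the spindle, and kinetochores join each chromosome to it. The spindle checkpoint holds back the anaphase-promoting complex until every kinetochore is attached, after which Cdc20 directs that complex to securin and cyclin B, separase is freed and the cell divides. Most of these genes are transcribed in a burst in late S, G2 and M phase, so that their mRNA in a bulk sample depends on how many cells are in those phases and on how much each cell makes. Fewer cells of a kind and less RNA per cell cannot be told apart in these data.

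Library totals ran from 23624498 to 33093330 counts. Every member had at least 351 counts in every library, far above the floor of 3 counts (0.0953 to 0.125 CPM). The retroviral genes went with their labels. Runx1 had 3643 and 4054 counts in mock, 214392 and 232610 with Runx1 WT, and 509871 and 673390 with Runx1 DN. Satb1 had 10172 and 11816 counts in mock and 104312 and 125348 with Satb1. All 12 pro-T cell markers were above 1 CPM in all 8 libraries, and their summed level was 4834 and 4887 CPM in the mock libraries. Levels are given as CPM, counts per 1000000 after TMM scaling of the library totals. Changes are log2 fold changes ± SE from edgeR's quasi-likelihood test on all 8 libraries, and a gene passed at a Benjamini-Hochberg adjusted p under 0.05 over the 12699 genes tested.

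All 54 genes were lower with Runx1 WT than with mock, and most were more than 2-fold lower. The members together took 0.918% and 0.942% of all counts in mock, 0.454% and 0.456% with Runx1 WT, 0.862% and 0.932% with Runx1 DN, and 0.965% and 0.969% with Satb1. The Runx1 WT libraries were low and did not overlap the other 6. Every member passed the test as lower, against 31.8% of all genes tested, while 38.9% of all genes passed as higher. With quantile normalization that background became 39.5% lower and 31.8% higher, and the 54 members stayed lower. The median change of the members was -1.14, against 0.10 for all genes, and 39 of the 54 were past 2-fold lower, as were 10.6% of all genes. Scaling by library size alone moved the median of all genes to 0.22 and quantile normalization moved it to -0.10. Relative to the median of all genes, the members' median was -1.24 with TMM, -1.24 when scaled by library size alone, and -1.03 after quantile normalization. In each of the 54, both Runx1 WT libraries were lower than the other 6, a pattern found in 30.2% of all genes tested.

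**Figure D1:**
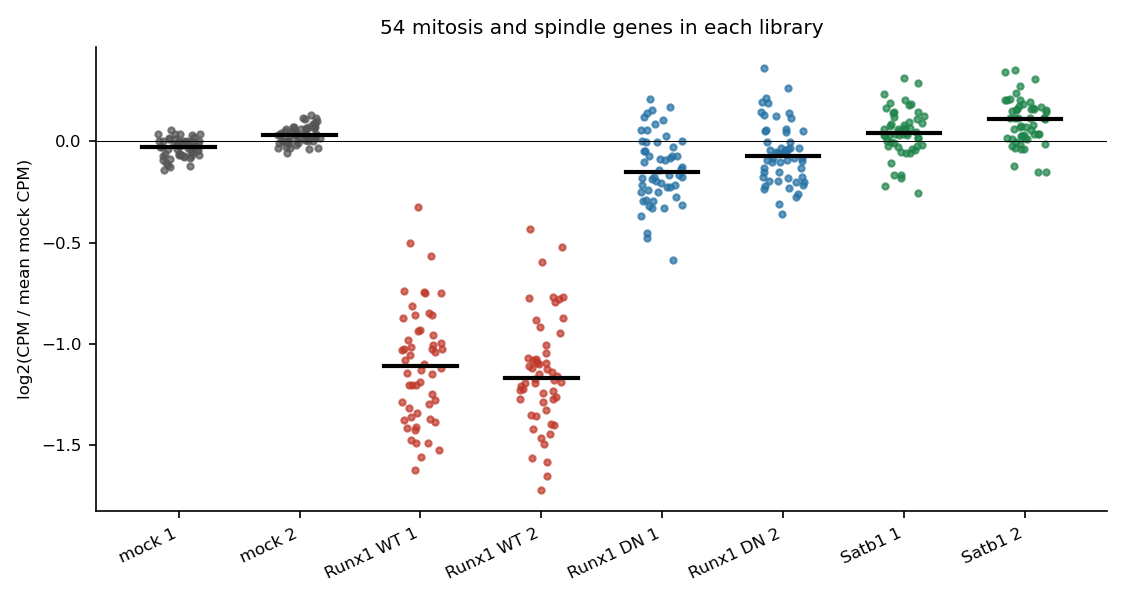
Each point is 1 of the 54 genes in 1 library, as the log2 of its CPM over its mean CPM in mock (vertical axis), and the black bars mark the medians of each of the 8 libraries. The Runx1 WT points lie lower than those of the other 6 libraries for every gene, and the mock, Runx1 DN and Satb1 libraries scatter around 0.

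Since these genes moved together, their promoters are shown. RefSeq promoter windows (GRCm38.p6, 250 bases before to 50 after the gene's start) were matched to 45 of the 54 members, with 48 windows in all. Ccna2, Cdc25c, Aurkb, Incenp, Spc24, Tpx2, Kif20a, Smc4 and Foxm1 had no entry. The cell cycle genes homology region (CHR) is a short promoter element of genes of the late cell cycle, read by the MuvB complexes, and the CCAAT box is bound by NF-Y. The printed stretches are the 120 bases that end just before the start, for 7 members named in every comparison and for Prc1 and Bub3, which differed from most members below. They lie at chr10:69352913-69353032, minus strand, for Cdk1 and at chr13:100786487-100786606, minus strand, for Ccnb1. Those of Cdc20 and Plk1 are at chr4:118437344-118437463, minus strand, and chr7:122159315-122159434, plus strand. Those of Bub1b and Top2a are at chr2:118598091-118598210, plus strand, and chr11:99024190-99024309, minus strand. Mki67 has chr7:135716380-135716499, minus strand, Prc1 has chr7:80294331-80294450, plus strand, and Bub3 has chr7:131560250-131560369, plus strand. Capitals mark the CHR letters TTTGAA or TTTAAA and the box CCAAT on either strand, so that TTCAAA and ATTGG are their reverse readings, and no marked letters overlap. In Prc1, TTTGAA starts at -5 and crosses the printed end, so it is not marked. Outside the printed bases, TTTGAA starts 30 bases after the start in Plk1, and CCAAT starts at -188, -166 and -141 in Mki67. Also outside them, CCAAT starts at -208 in Cdk1, and Top2a has TTTGAA at -179 and CCAAT at -227, -189 and -149. That of Bub1b is given below. Prc1 and Bub3 each have a further window, with its own start, that is not printed.
Cdk1: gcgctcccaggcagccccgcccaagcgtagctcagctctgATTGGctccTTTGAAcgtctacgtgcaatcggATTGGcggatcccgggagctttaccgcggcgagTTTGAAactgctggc
Ccnb1: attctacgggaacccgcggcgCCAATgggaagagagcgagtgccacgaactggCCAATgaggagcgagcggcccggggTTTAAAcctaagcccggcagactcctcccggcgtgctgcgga
Cdc20: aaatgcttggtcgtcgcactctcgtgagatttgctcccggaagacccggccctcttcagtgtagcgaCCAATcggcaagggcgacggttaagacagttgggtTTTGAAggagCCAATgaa
Plk1: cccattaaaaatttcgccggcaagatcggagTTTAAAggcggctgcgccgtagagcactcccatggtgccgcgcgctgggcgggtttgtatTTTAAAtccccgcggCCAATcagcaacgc
Bub1b: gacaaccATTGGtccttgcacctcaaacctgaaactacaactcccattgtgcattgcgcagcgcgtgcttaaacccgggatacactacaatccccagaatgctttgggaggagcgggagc
Top2a: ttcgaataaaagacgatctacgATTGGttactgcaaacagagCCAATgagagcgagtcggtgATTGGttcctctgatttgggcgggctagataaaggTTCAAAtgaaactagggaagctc
Mki67: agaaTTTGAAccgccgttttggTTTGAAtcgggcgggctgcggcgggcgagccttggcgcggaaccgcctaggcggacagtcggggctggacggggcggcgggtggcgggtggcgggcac
Prc1: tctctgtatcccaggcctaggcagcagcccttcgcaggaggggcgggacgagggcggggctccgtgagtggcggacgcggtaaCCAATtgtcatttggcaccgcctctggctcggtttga
Bub3: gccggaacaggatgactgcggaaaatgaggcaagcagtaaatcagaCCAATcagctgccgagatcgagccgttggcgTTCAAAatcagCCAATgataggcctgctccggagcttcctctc

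TTTGAA, searched on both strands, was found in 36 of the 48 member windows (75%), against 17.9% of all 32851 windows and 12.2% of those of genes tested. Within 50 bases of the start it was in 31 member windows (64.6%), against 4.94% of all windows. CCAAT was in 37 member windows (77.1%) and in 37.4% of all. Both TTTGAA and CCAAT were in 32 member windows (66.7%), against 6.95% of all. TTTAAA, which reads the same on both strands, was in 10 member windows (20.8%) and in 13.2% of all. The Runx core letters were not more frequent in these windows. TGTGGT was in 5 member windows (10.4%), 2 of them windows of Ect2 that hold the same site, against 16.8% of all and 13.4% of those of genes tested. TGCGGT was in 3 (6.25%), against 6.45% and 9.14%. Sites outside the windows were not searched. A match is a description of letters and not of binding. Among members, the change with Runx1 WT had a median of -1.16 in the 33 genes with TTTGAA and of -1.22 in the 12 without it, so the letters did not sort the members by the size of their change. Bub1b and Bub3, at the opposite ends of the order, both hold TTTGAA, starting 40 bases after the start in Bub1b and at -43 in Bub3.

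**Figure D2:**
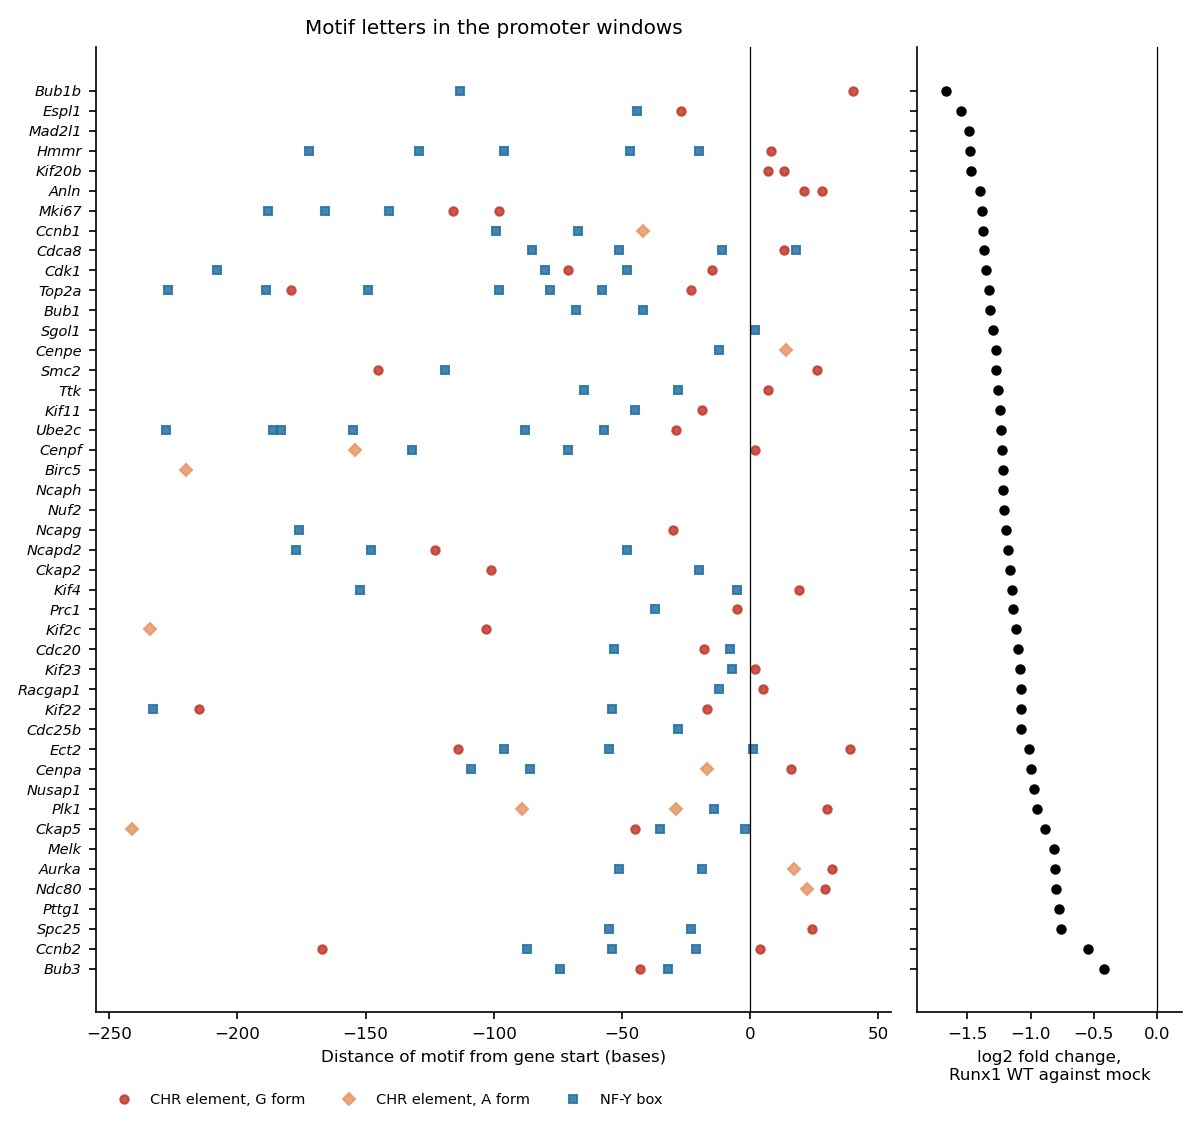
Left, positions of the motif letters from the gene start (bases) in the first promoter window of the 45 matched genes, with the CHR element (TTTGAA as G form, TTTAAA as A form) and the NF-Y box (CCAAT) on either strand. Right, the log2 fold change of the same genes for Runx1 WT against mock, from -1.67 for Bub1b at the top to -0.42 for Bub3 at the bottom; motif letters appear along the whole order.

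Cdk1 and its regulators all fell with Runx1 WT (6 of 6, median -1.07). Cdk1 itself, the kinase that starts mitosis (chromosome 10, 68799383 to 68815660 in mm9, minus strand), was at 155 and 159 CPM in mock, 64.4 and 58.7 with Runx1 WT, 147 and 153 with Runx1 DN and 160 and 169 with Satb1. The Runx1 WT libraries were the low ones, and its change against mock was -1.35 ± 0.07 (adjusted p = 1.37e-07, edgeR). Ccnb1, cyclin B1, the partner that activates Cdk1 (chromosome 13, 101548694 to 101556441), had 245 and 260 CPM in mock, 101 and 92.9 with Runx1 WT, 240 and 242 with Runx1 DN and 257 and 258 with Satb1. It fell by 1.38 on the log2 scale (SE 0.07, adjusted p = 9.66e-08, edgeR), to 38.5% of mock. Its relative Ccnb2, cyclin B2, had 57.7 and 65.3 CPM in mock, 43.5 and 40.8 with Runx1 WT, 69.1 and 67.1 with Runx1 DN and 64.4 and 69.4 with Satb1. Cyclin B2 was also lowest with Runx1 WT, with a smaller change of -0.55 ± 0.08 (adjusted p = 0.00021, edgeR). The 95% intervals of these cyclins, -1.53 to -1.22 for Ccnb1 and -0.74 to -0.36 for Ccnb2, did not overlap, although the difference between the genes was not itself tested. Ccna2 (cyclin A2), Cdc25b and Cdc25c changed by -1.07, -1.07 and -0.90. The span of Ccna2 shares 863 bases with Exosc9 on the other strand, itself at a mean of 70.9 CPM and -0.83 with Runx1 WT.

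**Figure D3:**
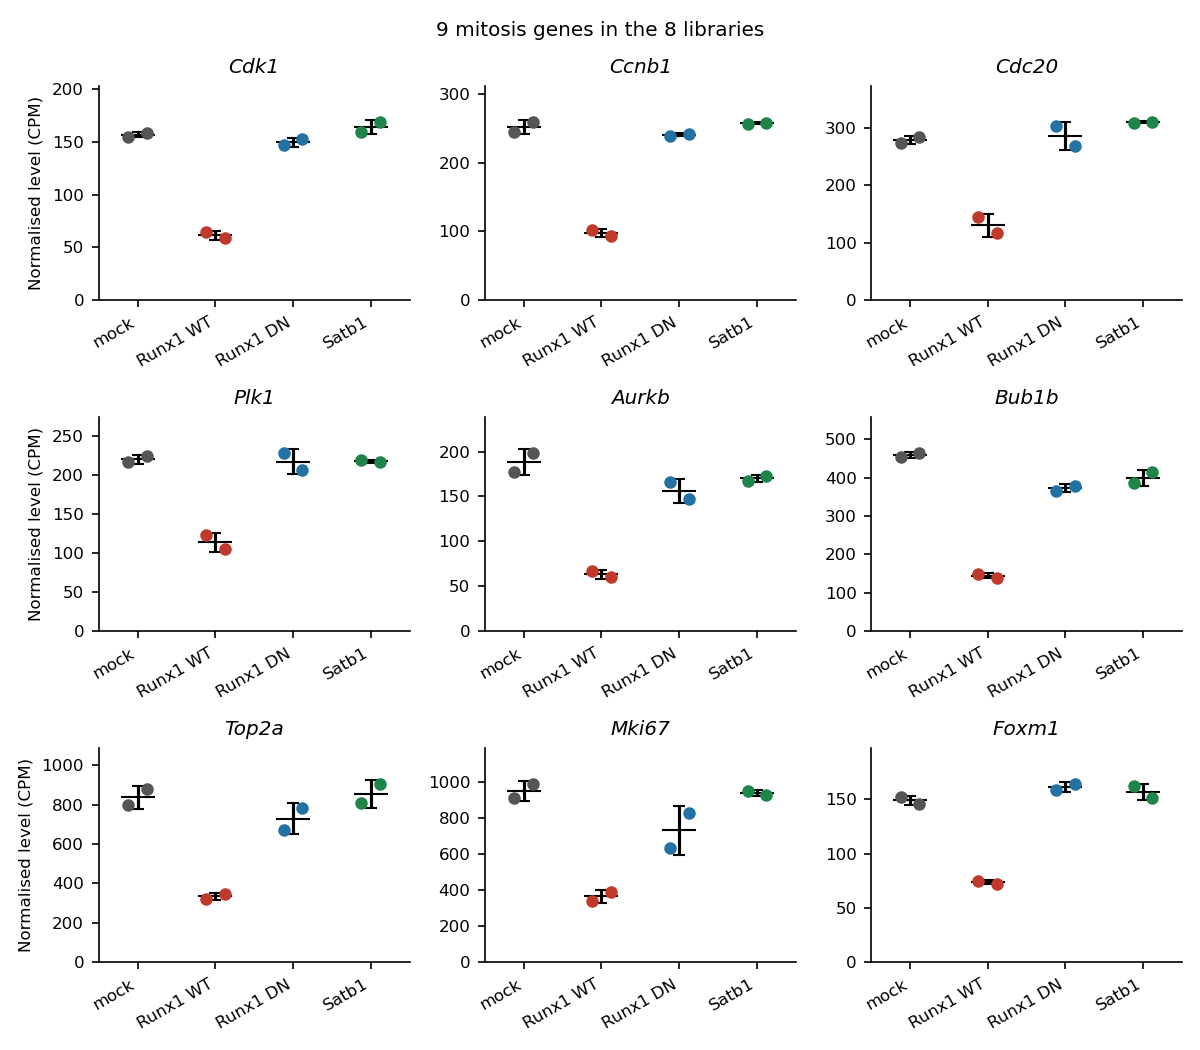
Normalised level (CPM, axes from 0) of 9 genes named in every comparison, with 1 point for each of the 8 libraries and bars for the mean ± SD of the 2 libraries of a group. In every panel both Runx1 WT points are lower than the other 6.

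Mitotic kinases fell as well (4 of 4, median -0.88). Plk1, which acts at centrosomes, kinetochores and the midbody (chromosome 7, 129302949 to 129313398), was at 216 and 224 CPM in mock, 122 and 105 with Runx1 WT, 228 and 206 with Runx1 DN and 219 and 216 with Satb1. Its change with Runx1 WT was -0.95 ± 0.09 (adjusted p = 4.13e-06, edgeR), and the other groups overlapped. Ttk, the kinase Mps1 that starts checkpoint signalling, was lowered most of the 4, from 56.1 and 53.3 CPM in mock to 21.6 and 24.2 with Runx1 WT, against 52.0 and 56.9 with Runx1 DN and 59.4 and 59.2 with Satb1. Aurka, which matures centrosomes, and Melk changed by -0.80 and -0.81.

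The chromosomal passenger complex, which corrects faulty attachments and later guides cytokinesis, fell in all 4 subunits (median -1.29). Aurkb, its kinase (chromosome 11, 68859139 to 68865166), had 178 and 199 CPM in mock, 67.0 and 59.9 with Runx1 WT, 166 and 147 with Runx1 DN and 168 and 173 with Satb1. Aurkb was the member with the second lowest change, -1.57 ± 0.09 (adjusted p = 2.12e-07, edgeR), to 33.7% of mock. The subunits Cdca8 (borealin), Birc5 (survivin) and Incenp changed by -1.37, -1.22 and -1.01.

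Among spindle checkpoint genes the range was widest, with 4 of 4 lower and a median of -1.40. Bub1b, which encodes the checkpoint protein BubR1 (chromosome 2, 118423947 to 118467328), had 454 and 465 CPM in mock, 149 and 140 with Runx1 WT, 366 and 380 with Runx1 DN and 386 and 414 with Satb1. Its change of -1.67 ± 0.07 (adjusted p = 4.04e-08, edgeR) was the lowest of all 54, and the groups did not overlap. Bub3, the adaptor that holds Bub1 and BubR1 at kinetochores (chromosome 7, 138703884 to 138715406), was at 210.1 and 210.0 CPM in mock, 168 and 146 with Runx1 WT, 197 and 182 with Runx1 DN and 221 and 222 with Satb1. Bub3 had the smallest change of all 54, -0.42 ± 0.08 (adjusted p = 0.000723, edgeR), although its protein binds BubR1. Their 95% intervals were -1.83 to -1.51 for Bub1b and -0.59 to -0.25 for Bub3. Bub3 was also among the members least like the rest, with a correlation of 0.907 to the mean of the other members over the 8 libraries, given as a description. Mad2l1, the inhibitor Mad2 of Cdc20, and Bub1 changed by -1.49 and -1.32.

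Centromere and kinetochore genes fell in 8 of 8 cases (median -1.11). Cenpa, the histone H3 variant that marks centromeres, had 171 and 197 CPM in mock, 100.4 and 83.5 with Runx1 WT, 183 and 179 with Runx1 DN and 170 and 188 with Satb1, a change of -0.998 ± 0.10 (adjusted p = 1.05e-05, edgeR). Sgol1, shugoshin, which guards centromeric cohesion, went from 49.0 and 51.5 CPM in mock to 21.2 and 19.7 with Runx1 WT, against 43.8 and 44.5 with Runx1 DN and 51.8 and 54.4 with Satb1. Its change, -1.30 ± 0.08 (adjusted p = 2.96e-07, edgeR), was the lowest of the group. Of the Ndc80 complex, which binds microtubules, Nuf2 changed by -1.21, Spc24 by -0.90, Ndc80 by -0.80 and Spc25 by -0.76.

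Genes of anaphase onset fell in 4 of 4 cases (median -1.17). Ube2c, the ubiquitin-conjugating enzyme of the anaphase-promoting complex and the member with the highest level per length in mock (181 CPM per kb), had 168 and 165 CPM in mock, 75.3 and 66.5 with Runx1 WT, 170 and 157 with Runx1 DN and 165 and 168 with Satb1. The Runx1 WT libraries alone were low, and its change was -1.23 ± 0.08 (adjusted p = 3.4e-07, edgeR). Cdc20, the activator that the checkpoint restrains (chromosome 4, 118105506 to 118109948), was at 274 and 284 CPM in mock, 144 and 116 with Runx1 WT, 303 and 269 with Runx1 DN and 308 and 311 with Satb1. It changed by -1.10 ± 0.10 (adjusted p = 4.77e-06, edgeR), and its span shares 52 bases with Elovl1, whose reads cannot be told apart there because the kit does not mark strand. Espl1, separase, which cuts cohesin, fell further, from 202 and 202 CPM in mock to 70.2 and 67.4 with Runx1 WT (-1.55 ± 0.07, adjusted p = 4.68e-08, edgeR), and was at 161 and 176 with Runx1 DN and 207 and 203 with Satb1. Pttg1, its inhibitor securin, had 39.7 and 47.9 CPM in mock, 26.0 and 25.3 with Runx1 WT, 48.7 and 56.2 with Runx1 DN and 45.8 and 48.9 with Satb1, a smaller change of -0.77 ± 0.11 (adjusted p = 0.000105, edgeR).

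Spindle motors and microtubule proteins fell in all 9 cases (median -1.12), from -1.48 for Hmmr to -0.88 for Ckap5. Hmmr, a hyaluronan receptor that also localises to spindle poles, had 126 and 132 CPM in mock, 46.4 and 45.8 with Runx1 WT, 92.5 and 108 with Runx1 DN and 130 and 143 with Satb1 (Runx1 WT against mock adjusted p = 2.83e-07, edgeR). Kif22, a chromosome-arm motor with the highest level per length in this group (56.6 CPM per kb), went from 114 and 118 CPM in mock to 60.8 and 49.3 with Runx1 WT (-1.07 ± 0.09), against 112 and 112 with Runx1 DN and 119 and 126 with Satb1. Kif11, the motor Eg5 that pushes spindle poles apart, changed by -1.24, and Tpx2, the Aurora A activator, by -0.93.

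Central spindle and cytokinesis genes fell in 7 of 7 cases (median -1.09). Kif20b was lowest, with 89.4 and 89.7 CPM in mock, 30.5 and 33.9 with Runx1 WT, 69.3 and 78.1 with Runx1 DN and 95.4 and 100.5 with Satb1 (Runx1 WT against mock -1.48 ± 0.09, adjusted p = 2.36e-07, edgeR). Anln, anillin of the contractile ring, changed by -1.40, and Racgap1 and Kif23, which together form centralspindlin, by -1.08 and -1.09. The values of these centralspindlin partners lay within their errors of each other.

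Condensins, topoisomerase and the chromosome surface fell in 7 of 7 cases (median -1.22). Top2a, topoisomerase II alpha, which untangles sister DNA (chromosome 11, 98854261 to 98885503), had 796 and 879 CPM in mock, 321 and 347 with Runx1 WT, 672 and 785 with Runx1 DN and 806 and 906 with Satb1. Its change with Runx1 WT was -1.33 ± 0.10 (adjusted p = 1.29e-06, edgeR). Mki67, the antigen Ki-67 that coats mitotic chromosomes and is widely used to mark cycling cells (chromosome 7, 142881471 to 142908062), had 912 and 992 CPM in mock, 339 and 391 with Runx1 WT, 635 and 828 with Runx1 DN and 951 and 929 with Satb1. The Runx1 DN libraries lay between the others and far apart, and the change with Runx1 WT was -1.38 ± 0.12 (adjusted p = 3.83e-06, edgeR). Smc4, a core condensin subunit, had 307 and 309 CPM in mock, 208 and 228 with Runx1 WT, 259 and 289 with Runx1 DN and 300 and 312 with Satb1. That change, -0.50 ± 0.08 (adjusted p = 0.000201, edgeR), was the second smallest of the 54, whereas its partner Smc2 changed by -1.27 ± 0.09, with 95% intervals of -0.67 to -0.33 and -1.48 to -1.07. The condensin I subunits Ncaph, Ncapg and Ncapd2 were near Smc2, at -1.22, -1.19 and -1.18.

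Foxm1, the forkhead factor that acts with MuvB and B-Myb on G2 and M genes (chromosome 6, 128313012 to 128325904), had 152 and 146 CPM in mock, 74.7 and 72.2 with Runx1 WT, 158 and 164 with Runx1 DN and 162 and 152 with Satb1. It fell with Runx1 WT (-1.02 ± 0.07, adjusted p = 5.03e-07, edgeR), to 49.3% of mock, and its span shares 377 bases with 4933413G19Rik, at a mean of 2.93 CPM.

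**Figure D4:**
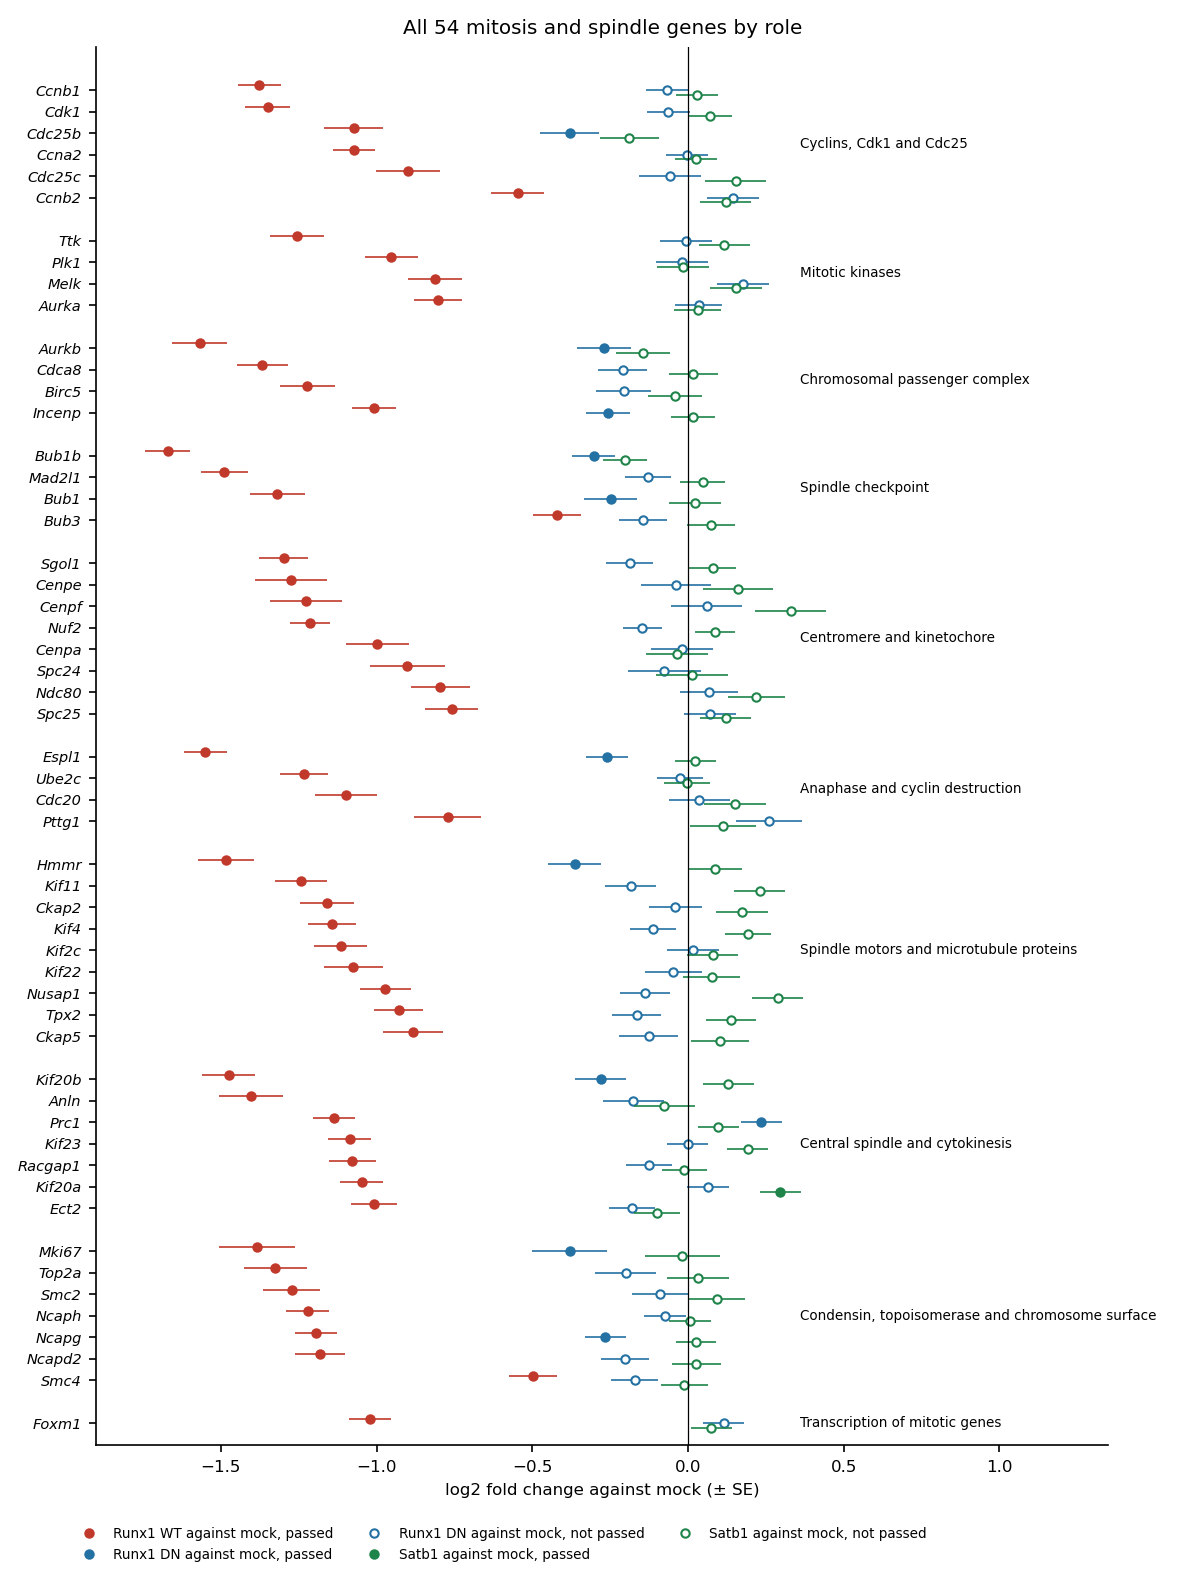
Log2 fold change ± SE (horizontal axis) against mock for all 54 genes, grouped by role, for Runx1 WT, Runx1 DN and Satb1, with filled points for genes that passed. All 54 Runx1 WT points are negative and filled, 11 Runx1 DN points are filled (10 lower and 1 higher, which became 3 lower and 4 higher when libraries were scaled by total alone), and 1 Satb1 point is filled.

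Markers of other cells moved in the Runx1 WT libraries too. The summed level of 6 NK and cytotoxic markers was 0.908 to 1.37 CPM in mock and 123 to 125 CPM with Runx1 WT, most of it Nkg7 (90.9 and 94.0 CPM) and Gzmb (29.4 and 26.7 CPM), and 3 of the 6 were over 1 CPM in both libraries. The sum of 8 myeloid markers was 9.98 to 11.7 CPM in mock and 72.4 to 76.9 CPM with Runx1 WT, most of it Itgam (65.1 and 70.4 CPM), with Lyz2 at 0.143 CPM in both. The 12 pro-T cell markers summed to 5849 to 5897 CPM with Runx1 WT, with 7 above both mock libraries, among them Gata3 and Cd3g, and 4 below both (Rag1, Notch1, Il2ra and Ptcra). With Runx1 DN they summed to 2847 to 3008 CPM, with 2 above (Notch1 and Ptcra) and 9 below, and with Satb1 to 6584 to 6724 CPM, with 8 above and 0 below. Of 6 stromal markers only Pdgfrb exceeded 2 CPM in any library, at 24.1 and 26.3 CPM in mock and 96.0 and 103.4 with Runx1 WT, and it was at 85.5 to 113 CPM with the other constructs. The 6 B lineage markers summed to at most 1.11 CPM in any library, 5 erythroid markers summed to 4.99 to 6.67 CPM in mock and 9.75 to 10.6 CPM with Runx1 WT, and Hbb-b1 was at 0 in all 8. Malat1, a nuclear RNA on the list for RNA quality, was at 524 and 495 CPM in mock, 1060 and 1409 with Runx1 WT, 964 and 1098 with Runx1 DN and 492 and 442 with Satb1. Of the 7 genes on that list, 4 were above both mock libraries with Runx1 WT, 2 were below and 1 overlapped. Hsp90aa1 was among those below, from 1978 and 1999 CPM in mock to 835 and 800. The list summed to 2697 to 2741 CPM in mock and 2533 to 2834 CPM with Runx1 WT. The part of any of these in the result was not tested.

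Other genes of the cell cycle were read from lists drawn up for this comparison. Of 57 further mitosis genes, 55 were lower with Runx1 WT, 1 was higher and 1 did not pass (median -1.07). Of all genes tested, 31.8% were lower and 38.9% higher. Trip13, which remodels Mad2, went from 61.3 to 18.7 CPM (group means, -1.72 ± 0.08, adjusted p = 5.02e-08, edgeR), and Zwilch, a kinetochore protein of the checkpoint, from 70.7 to 23.8 CPM. Ncapg2, of condensin II, changed by -1.36. The gene that rose was Gsg2 (haspin, 0.44 ± 0.09, adjusted p = 0.000979, edgeR), and Mis12 did not pass (-0.11), both picked out after their values were seen. Of 28 S phase genes, 27 were lower, among them Pole (-1.77 ± 0.08), Mcm3 (-1.54 ± 0.07), Cdc6 (-1.51 ± 0.07) and Rrm1 (-1.48 ± 0.07), and the median of -1.21 was as low as that of the mitosis genes. The exception, Cdk2, rose by 1.24 ± 0.08 on the log2 scale (named after its value was seen).

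Further lists cover the machinery that works with the members. Among all genes tested, 31.8% were lower and 38.9% higher with Runx1 WT. Of 14 core subunits of the anaphase-promoting complex, 6 were lower, 2 were higher and 6 did not pass (median 0.00, highest 0.58). Those with the smallest adjusted p were Anapc1 at -0.81 ± 0.07, Anapc5 at -0.76 ± 0.07, Cdc16 at -0.56 ± 0.07 and Cdc23 at -0.44 ± 0.06. Cdc23 shares 1595 bases of span with the member Kif20a, itself at -1.05, so reads of the pair cannot be told apart there. Of 10 cohesin genes and loaders, 6 were lower, 1 was higher and 3 did not pass (median -0.28, highest 0.51). The smallest adjusted p-values were those of Smc3 at -0.89 ± 0.07, Smc1a at -0.86 ± 0.11, Pds5a at -0.75 ± 0.08 and Rad21 at -0.66 ± 0.08. Of 8 tubulins, 6 were lower and 1 higher (median -1.06). Tuba1b, Tuba1c and Tuba1a changed by -1.37, -1.28 and -1.26, values that are uncertain because these genes are near-identical copies, and Tubb2a rose from 73.1 to 299 CPM (2.03 ± 0.08, adjusted p = 2.44e-08, edgeR).

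Regulators of these genes went both ways. Of 19 DREAM, MuvB and E2F genes, 14 were lower and 4 higher with Runx1 WT (median -0.52), where 31.8% and 38.9% of all genes were. Rbl2, which encodes the pocket protein p130 of the repressive DREAM complex, rose from 33.4 to 174 CPM (2.38 ± 0.12, adjusted p = 8.91e-08, edgeR), and was at 31.7 CPM with Runx1 DN and 34.1 CPM with Satb1. Mybl2, B-Myb of the activating complex, fell from 110.1 to 43.7 CPM (-1.33 ± 0.07, adjusted p = 1.69e-07, edgeR), and E2f8 and Tfdp1 changed by -1.27 and -1.16. Of 5 Cdk inhibitors tested, 3 were higher, as were 38.9% of all genes: Cdkn1a (p21) by 1.28 ± 0.20, Cdkn1c (p57) by 1.58 ± 0.30 and Cdkn2d (p19) by 0.93 ± 0.25. Cdkn1c was scarce, at 1.22 CPM in mock and 3.68 with Runx1 WT (group means). Cdkn1b (p27) at 0.15 ± 0.19 and Cdkn2c at -0.03 ± 0.10 did not pass. Cdkn2c, named after its value was seen, had the highest mean of the 5 in mock (127 CPM). With Runx1 DN, 2 of the 5 were higher, against 17.5% of all genes. They were Cdkn1a by 1.22 ± 0.20 (adjusted p = 0.00124, edgeR) and Cdkn1c by 2.32 ± 0.29 (adjusted p = 0.000201, edgeR), the latter to 6.13 CPM.

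With Runx1 DN most members did not pass the test against mock. Of the 54, 10 were lower (18.5%, against 16.9% of all genes tested) and 1 was higher (17.5% of all genes), shares that put the lower count near the background. By library size alone the background became 11.9% lower and 22.8% higher, and 3 members were lower and 4 higher. The members' median was -0.10, against 0.002 for all genes. Those that fell were Cdc25b (-0.38 ± 0.09), Mki67 (-0.38 ± 0.12), Hmmr (-0.36 ± 0.09), Bub1b (-0.30 ± 0.07), Kif20b (-0.28 ± 0.08), Aurkb (-0.27 ± 0.09), Ncapg (-0.27 ± 0.07), Espl1 (-0.26 ± 0.07), Incenp (-0.26 ± 0.07) and Bub1 (-0.25 ± 0.09), at adjusted p-values of 0.00754 to 0.0459 (edgeR). Cdc25b had 57.8 and 68.3 CPM in mock, 30.4 and 29.5 with Runx1 WT, 46.0 and 50.9 with Runx1 DN and 54.1 and 56.7 with Satb1, so its Runx1 DN libraries lay between those of Runx1 WT and mock. Most of these calls were lost without the second mock library or without the first Runx1 DN library, and several were lost without the first mock library. Without the second mock library the members' median was -0.065, against 0.009 for all genes. It was -0.066 against 0.004 without the first Runx1 DN library, and -0.15 against 0.007 without the first mock library. Ncapg shares 3364 bases of span with Lcorl on the other strand, itself at a mean of 38.4 CPM and -0.50 with Runx1 DN.

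Prc1, which bundles antiparallel microtubules of the central spindle, was the member that rose with Runx1 DN. It had 155 and 154 CPM in mock, 71.0 and 69.3 with Runx1 WT, 178 and 185 with Runx1 DN and 157 and 173 with Satb1. The Runx1 DN libraries were the highest, at 0.24 ± 0.07 over mock (adjusted p = 0.021, edgeR), a call that was lost without either mock library and without either Runx1 DN library. Pttg1 had the highest fitted change (0.26 ± 0.11, adjusted p = 0.0814, edgeR) and Melk came after Prc1 (0.18 ± 0.08), neither of which passed. Of the other genes named throughout, Top2a was at -0.20 ± 0.10, Ccnb1 at -0.07 ± 0.07, Cdk1 at -0.06 ± 0.07, Plk1 at -0.02 ± 0.08, Cdc20 at 0.04 ± 0.10 and Foxm1 at 0.11 ± 0.07, and none of them passed. Among the other lists, 18 of 28 S phase genes were lower and none higher with Runx1 DN (median -0.26), a larger share than the 16.9% of all genes tested. Of 57 further mitosis genes, 9 were lower and 2 higher (median -0.09), the lower share being near that 16.9%, and 17.5% of all genes were higher. The list counts were not repeated under other scalings, on which the Runx1 DN calls of members depended.

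Runx1 WT and Runx1 DN were compared with each other directly, since each comparison with mock uses the same mock libraries. All 54 members were lower with Runx1 WT than with Runx1 DN, against 33.5% of all genes tested, while 34.8% of all genes were higher. The median was -1.07, and both Runx1 WT libraries were lower than both of Runx1 DN in every member, as in 40.8% of all genes. Changes ran from -1.37 ± 0.07 for Prc1, -1.37 ± 0.07 for Bub1b and -1.36 ± 0.08 for Mad2l1 to -0.69 ± 0.08 for Ccnb2, -0.33 ± 0.08 for Smc4 and -0.28 ± 0.08 for Bub3 (adjusted p = 0.0099, edgeR). The call of Bub3 was lost without the second Runx1 WT library. In this contrast Ccnb1 was at -1.31 ± 0.07, Aurkb at -1.30 ± 0.09, Cdk1 at -1.29 ± 0.07, Foxm1 at -1.14 ± 0.07, Cdc20 at -1.13 ± 0.10, Top2a at -1.13 ± 0.10, Mki67 at -1.004 ± 0.12 and Plk1 at -0.93 ± 0.09. All of these passed as lower. Rbl2 was higher with Runx1 WT than with Runx1 DN (2.45 ± 0.12, adjusted p = 6.8e-08, edgeR), and for Cdkn1a the difference was 0.06 ± 0.20 and did not pass.

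**Figure D5:**
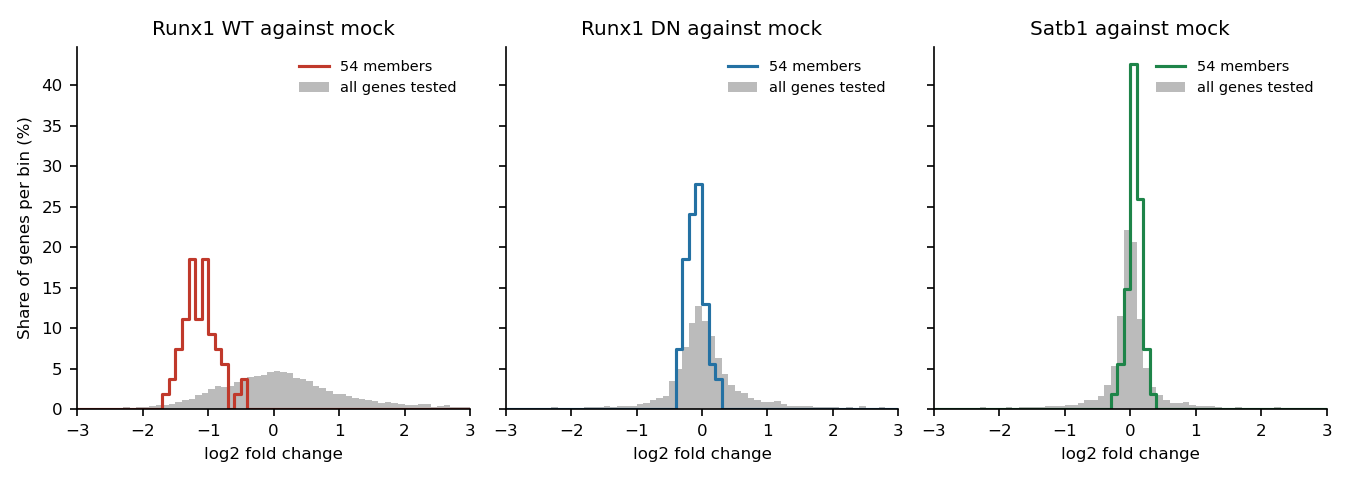
Share of genes (%) in bins of 0.1 of log2 fold change for all 12699 genes tested (grey) and for the 54 members (line), for each construct against mock. The members sit around -1.14 with Runx1 WT, apart from the bulk of all genes, and around -0.10 with Runx1 DN and 0.07 with Satb1, where they overlie it.

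With Satb1 the members stayed near mock. Of the 54, 1 was higher, against 3.28% of all genes tested, and none was lower, against 3.09% (edgeR, and likewise none with DESeq2), with 8 of the 54 (14.8%) at an unadjusted p under 0.05, against 18.7% of all genes. The median was 0.07, against -0.004 for all genes. The gene that passed was Kif20a, the cytokinesis motor MKLP2, with 195 and 203 CPM in mock, 97.8 and 94.5 with Runx1 WT, 198 and 217 with Runx1 DN and 243 and 246 with Satb1. Its Satb1 libraries were highest, at 0.30 ± 0.07 over mock (adjusted p = 0.0275, edgeR), and the call was lost without any 1 of the mock or Satb1 libraries. Kif20a shares 1595 bases of span with Cdc23 on the other strand, itself at a mean of 139.9 CPM and 0.18 ± 0.06 over mock with Satb1, so reads of the pair cannot be told apart there. The highest change was that of Cenpf, a kinetochore protein, with 216 and 254 CPM in mock, 91.7 and 109 with Runx1 WT, 222 and 268 with Runx1 DN and 292 and 300 with Satb1 (0.33 ± 0.11, adjusted p = 0.141, edgeR).

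Nusap1, which stabilises spindle microtubules, came after Kif20a with Satb1 (0.29 ± 0.08, adjusted p = 0.0698, edgeR), and shares 208 bases of span with Oip5. At the low end were Bub1b (-0.20 ± 0.07), Cdc25b (-0.19 ± 0.09) and Aurkb (-0.14 ± 0.09), none of which passed. Cdc20 was at 0.15 ± 0.10, Foxm1 at 0.07 ± 0.07, Cdk1 at 0.07 ± 0.07, Ccnb1 at 0.03 ± 0.07, Top2a at 0.03 ± 0.10, Plk1 at -0.02 ± 0.08 and Mki67 at -0.02 ± 0.12. A p that missed the threshold does not show that these levels were equal. Of the other lists, the genes tested with Satb1 all missed the threshold except E2f7, which was lower and is named after its value was seen.

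Set side by side, the 3 constructs gave the members 5 orders of group means. Runx1 WT was lowest in all 54. For 30 members the order was Runx1 WT, Runx1 DN, mock and Satb1 from low to high, for 11 it was Runx1 WT, Runx1 DN, Satb1 and mock, and for 12 mock was directly over Runx1 WT. The libraries of Runx1 DN and mock overlapped in 20 members (37%, against 30.8% of all genes tested). Where they did not, Runx1 DN was lower in 29 of the 54 and higher in 5, while all genes were near even (34.5% and 34.7%). The fitted change was negative in 42 of the 54, against 49.5% of all genes. The libraries of Satb1 and mock overlapped in 28 members (51.9%, against 48.2% of all genes). Otherwise Satb1 was lower in 3 of the 54 and higher in 23, while all genes were near even (26% and 25.8%). Here the fitted change was positive in 42 of the 54, while 51.1% of all genes were negative. Under TMM, members thus leaned lower with Runx1 DN and higher with Satb1, by small medians (-0.10 and 0.07). By library size alone, 28 of the 54 were negative with Runx1 DN (median -0.016, against 0.085 for all genes). With quantile normalization 30 were (median -0.034, against -0.019 for all genes). With Satb1 the same scalings left 11 and 13 of the 54 negative. The members are not independent, and the lean was not tested. Within groups, members differed between the 2 libraries by a median of 0.06 in mock, -0.05 with Runx1 WT, 0.08 with Runx1 DN and 0.06 with Satb1 (log2, library 2 minus library 1).

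Properties of the members that their choice did not use were compared as descriptions across the 54 genes, which are not independent replicates. Levels per length in mock ran from 181 CPM per kb for Ube2c, 162 for Top2a and 157 for Cdc20 down to 12.9 for Melk and 12.5 for Cdc25c. The change with Runx1 WT had a Spearman correlation of -0.06 with that level and of -0.36 with transcript length, and the change with Runx1 DN had -0.42 with length. Outside the cell cycle lists, the genes whose log2 CPM over the 8 libraries was most like the mean of the members, among 9414 genes over 5 CPM, were Hsp90aa1, a chaperone gene also on the list for RNA quality and stress (Pearson r = 0.9988), Hat1, a histone acetyltransferase gene (0.9988), Fignl1 (0.9987), Htatsf1 (0.9982) and Haus4, an augmin subunit of the spindle (0.9980). Those correlations follow the single step between the Runx1 WT libraries and the other 6. Haus4, for example, was at 43.3 and 48.1 CPM in mock, 20.7 and 19.6 with Runx1 WT, 41.3 and 42.4 with Runx1 DN and 45.0 and 49.1 with Satb1.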

How the data were processed

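RNA of 8 libraries was analysed from whole-number counts. These counts were made by the authors with HOMER over the exons of mm9, 1 row per gene, with no length or depth correction, per the file headers. Among the tools in the submitters' processing notes are edgeR 3.6.8, HOMER, RSEM 1.2.25, STAR 2.4.0 and Trimmomatic 033. The authors' deposited table further holds log2 fold changes and p-values for each construct against mock. In the authors' deposited table, 54 members were lower with Runx1 WT, 9 with Runx1 DN and 0 with Satb1 at an adjusted p under 0.05. Of all 24505 genes there, 4314, 1946 and 516 were lower. The members called higher there were 0 with Runx1 WT, 0 with Runx1 DN and 1 with Satb1, which was Kif20a.

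Here edgeR 4.0.16 (R 4.3.3) was run on all 8 libraries with TMM scaling, filterByExpr (minimum count 10), group means and two-sided tests, and the scripts were tested on simulated data. The floor of 3 counts covers counting error only, and the 95% intervals of fold changes come from the spread between libraries in the edgeR fit. Of the 54 members, 8 overlap the span of another row. Members and lists were chosen with earlier results of these data known. The genes named were 9 fixed members, the 3 highest and 3 lowest changes per comparison, the highest level per kb and largest Runx1 WT change of each role, any call against the main direction, and up to 4 genes per other list by adjusted p, 1 of which is not reported here. Other members of a role, mostly given with their fold change alone, were picked after their values were seen. Alternatives were other scalings (limma 3.58.1 for quantile normalization), filters, DESeq2 1.42.0, a replicate block and leaving out libraries. RefSeq promoter windows are GRCm38.p6, a build other than that of the counts, and were used for letters only.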

Additional observations from a re-analysis of the deposited data

How the results depend on the processing

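All 54 members were lower with Runx1 WT than with mock under each of the 18 alternatives, and lower than with Runx1 DN under 17, the exception being Bub3 without the second Runx1 WT library. For Runx1 WT against mock the median moved to -1.19 with DESeq2 size factors, -1.02 by library size alone, -1.19 with the DESeq2 test and -1.22 with the 2 groups alone. For Runx1 WT against Runx1 DN it moved to -1.03 by library size alone, -1.14 with quantile normalization and -1.12 with the stricter filter.

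The Runx1 DN calls depended on the processing, and the cause was not tested. Against mock, library size alone gave 3 members lower and 4 higher, where 11.9% of all genes were lower and 22.8% higher. The members' median was -0.016, against 0.085 for all genes. Quantile normalization gave 2 members lower and 2 higher, where 16% of all genes were lower and 16.2% higher. There the members' median was -0.034, against -0.019 for all genes. The members' median was -0.066 with the stricter filter, -0.12 with DESeq2 size factors, -0.12 with the DESeq2 test and -0.087 with the 2 groups alone. With both the mock and Satb1 libraries numbered 2 left out, 0 members were lower and 0 higher (median -0.065), 1219 of all genes were lower with Runx1 DN, and with Satb1 0 members were higher, with 162 of all genes lower and 152 higher.

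With 1 library left out at a time, the Runx1 WT against mock median ran from -1.18 to -1.11 and the Runx1 WT against Runx1 DN median from -1.15 to -1.02. For Runx1 DN against mock, 0 to 12 members were lower and 0 to 1 higher, the median ran from -0.16 to -0.065, and 1311 to 2356 of all genes were lower. For Satb1 against mock, 0 to 1 members were higher, with 193 to 407 of all genes lower and 227 to 432 higher. Where a group kept 1 library, that library is assumed to vary like the other groups.

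Replicate numbers were not taken to pair the libraries, because the labels do not say what libraries with the same number share. Over all genes tested, replicate deviations correlated at 0.392 between mock and Satb1 and at 0.193 between Runx1 WT and Runx1 DN. In the other pairs of groups the correlations were 0.068 to 0.089. The source of the shared deviation was not tested. With a replicate block, 18 members were lower and 2 higher with Runx1 DN. Of all genes, 20.7% were then lower and 20.9% higher, against 16.9% and 17.5% without the block. With Satb1 and the block 4 members were higher, and 635 of all genes were lower and 630 higher. The block changed no call of a member for Runx1 WT against mock or against Runx1 DN. Depth was not limiting for the members, all of which had at least 351 counts in each library.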
